A study of Mus musculus with 3 samples.

Results

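Crystallins are the soluble proteins that fill the fibre cells of the eye lens, and Mip, Bfsp1 and Gja3 belong to the membrane and cytoskeleton of the same cells. The 9 such genes examined in neural retina were Cryaa, Cryab, Cryba1, Crygb, Crygd, Crygs, Mip, Bfsp1 and Gja3. They were chosen by name: every probe set whose platform annotation gave 1 of these symbols and no other was taken, which gave 12 of the 12422 probe sets that are not array controls, and 9 of 8251 named genes. The 3 samples were retinas of Rp1 knockout mice (Rp1-/-) at postnatal day 21, on a mixed 129/SvEv and C57BL/6 background, with each RNA pooled from 3 to 4 mice and collected between 1 and 2 pm. All 3 samples, hybridised to 1-colour U74Av2 arrays, form 1 group. No wild-type or other control group was analysed here, so nothing was tested between conditions, and no value below can be tied to the loss of Rp1, whose product binds the microtubules of photoreceptor outer segments. No probe set used here carried the single symbol Rp1, so the knockout itself was not analysed here. Replicate numbers only name the pools.

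As background, lens fibre cells pack alpha, beta and gamma crystallins at very high concentration, which gives the lens its refractive power. The alpha crystallins, Cryaa and Cryab, are small heat shock proteins that hold partly unfolded proteins in solution, and Cryab is also made in many other tissues. Cryba1 encodes a beta crystallin, Crygb and Crygd encode gamma crystallins of lens fibres, and Crygs encodes a related crystallin made later in lens growth. Mip is the main water channel and junction protein of fibre membranes, Gja3 is a connexin of fibre gap junctions, and Bfsp1 (filensin) builds the beaded filament, a cytoskeletal structure attached to the fibre membrane, so it is not itself a membrane protein. Retinal neurons and glia of rodents also transcribe several crystallin genes. Whether the signals came from lens fragments or from transcription in the retina was not tested. In RNA from whole retina, fewer cells of a type and less RNA per cell cannot be told apart.

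The Crygd, Crygc and Crygb genes lie side by side between Cryge and Cryga in the RefSeq gene order of mouse chromosome 1, while the other members each lie on a chromosome of their own. The 120 bases before the RefSeq start site are shown for the 5 crystallins with the brightest probe sets. They are given on the strand of the gene (build GRCm38.p6). Any link between these sequences and the signals below was not tested. Capitals mark TATATA or TATAAA, the letters TGCTGA (a core that MAF transcription factors of the lens recognise), and TTTGTG, which all 6 promoters from Cryga to Crygf share in the 250 bases before their starts. No run longer than 6 bases was common to all 6 of them, and TATATA is another run of that length that they share. The 2 gamma promoters are on the minus strand at chr1:65082291-65082410 for Crygb and chr1:65063441-65063560 for Crygd, Cryaa is on the plus strand at chr17:31677811-31677930, and Cryba1 and Crygs are on the minus strand at chr11:77725294-77725413 and chr16:22811411-22811530.
Crygb: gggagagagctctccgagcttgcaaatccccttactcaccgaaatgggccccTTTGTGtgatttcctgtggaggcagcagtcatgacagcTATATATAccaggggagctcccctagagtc
Crygd: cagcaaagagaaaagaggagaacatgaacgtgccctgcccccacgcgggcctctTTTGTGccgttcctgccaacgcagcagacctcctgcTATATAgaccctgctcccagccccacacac
Cryaa: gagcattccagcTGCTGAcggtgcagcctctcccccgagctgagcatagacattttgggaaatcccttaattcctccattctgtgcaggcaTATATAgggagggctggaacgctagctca
Cryba1: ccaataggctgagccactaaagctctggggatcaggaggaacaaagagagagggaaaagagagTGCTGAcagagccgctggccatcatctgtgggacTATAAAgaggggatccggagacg
Crygs: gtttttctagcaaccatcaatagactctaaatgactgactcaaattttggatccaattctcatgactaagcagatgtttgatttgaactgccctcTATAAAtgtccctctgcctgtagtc
Of the 8 members with an entry in the promoter table, 5 held TATATA or TATAAA in these 120 bases on either strand, 2 held TGCTGA and 2 held TTTGTG. Among all 32851 entries of that table, TATATA was found in 2.51% of the same windows, TATAAA in 6.34%, TGCTGA in 8.18% and TTTGTG in 7.30%. TTTGTG begins 68 bases before the start in Crygb and 66 in Crygd, and TATATA begins 30 bases before it in both, with a second, overlapping TATATA in Crygb. These matches describe letters and not bound sites, and TTTGTG was picked from these promoters. In the 250 bases before the start, the window in which it was picked, 15.6% of all entries held TTTGTG.

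A signal is the deposited intensity after scaling each array to a common trimmed mean, and the background limit is the 95th percentile of the 19 bacterial and yeast control probe sets, at 160.3, 80.7 and 107.1 in replicates 1, 2 and 3. Replicate 1 stood apart: over the 6752 probe sets above the limit on all 3 arrays, log2 signals of replicates 2 and 3 correlated at 0.93 across probe sets, against 0.83 for both pairs with replicate 1. Rod photoreceptor markers (5 of 5 measured genes above the limit on all arrays) and Müller glia markers (3 of 3) were detected. The pigment cell markers had a summed signal of 1422, 12026 and 7835 in replicates 1, 2 and 3, and the erythroid markers 4272, 26180 and 7047.

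Lens transcripts gave signal in every pool. Of the 12 lens probe sets, 11 were above the limit on all 3 arrays, against 54.4% of all probe sets, and all 9 genes had at least 1 such probe set. With the limit at the 40th percentile of each array instead, 10 probe sets and 8 genes passed, since Gja3 (143 in replicate 3) no longer did. The exception under the first limit was the plain-suffix probe set of Cryab. Counting only the 8 lens probe sets with a plain suffix, 7 passed.

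**Figure D1:**
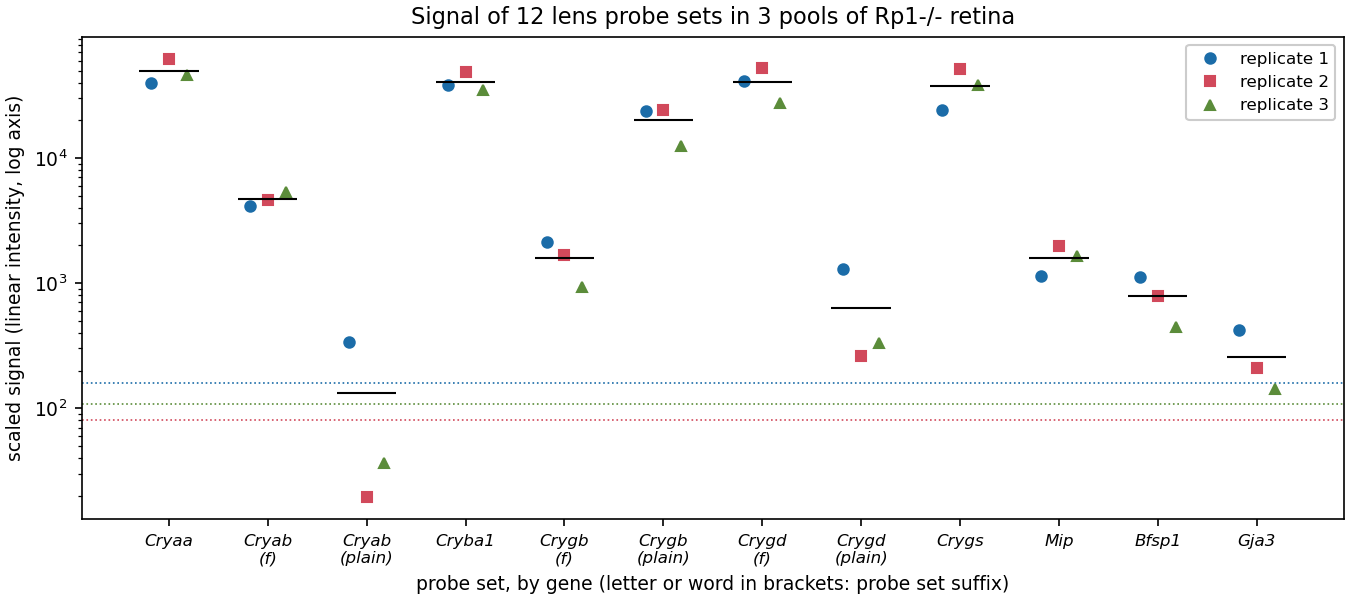
Scaled signal (log axis) of the 12 lens probe sets in each of the 3 pools. Points are pools, black bars are means over the 3 pools, dotted lines are the background limit of the replicate in the same colour, and brackets give the probe set suffix where a gene has more than 1. Signals stay above the limits except for the plain-suffix Cryab probe set in replicates 2 and 3. Replicate 3 is the lowest point for both Crygb probe sets, the f-suffix Crygd one, Cryba1, Bfsp1 and Gja3.

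The alpha crystallins were measured by 3 probe sets. Cryaa had signals of 39574, 62140 and 46061 in replicates 1, 2 and 3, a mean of 49258 ± 11618 (SD, n = 3). Replicate 2 was high and replicate 1 low, a 1.57-fold range. The probe sets of Cryab contradicted each other. The one with an f suffix, which in the array maker's naming may share probes within a sequence family, gave 4124, 4637 and 5352, a mean of 4704 ± 617 (SD, n = 3), so the pools differed by no more than 1.30-fold. The plain-suffix one gave 339 in replicate 1 and values below the limit, 19.3 and 36.6, in replicates 2 and 3. At that probe set replicate 1 was at least 4.20-fold above replicate 2 and at least 3.16-fold above replicate 3, while at the other one replicate 1 was the lowest pool. No direction between pools can therefore be given for Cryab.

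Among the 5 brightest lens probe sets, the scaled signals of Cryba1 varied least, although relative to other bright probe sets the log2 range of Cryaa was narrower, at 0.05 against 0.29. The Cryba1 signals were 38166, 48963 and 35126 in replicates 1, 2 and 3, a mean of 40752 ± 7272 (SD, n = 3) and a 1.39-fold range. Replicate 2 was the high pool and the other pools lay close together.

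The gamma crystallins Crygb and Crygd were low in replicate 3 at 3 of their 4 probe sets. Crygb gave 23927, 24276 and 12366 in replicates 1, 2 and 3 at its plain-suffix probe set (mean 20190 ± 6778, SD, n = 3), so that replicates 1 and 2 were almost equal and replicate 3 was low. Its f-suffix probe set gave 2146, 1686 and 925 (mean 1586 ± 617, SD, n = 3), again with the low value in replicate 3. The 3 deviations from the probe set's own log2 mean differed little between these probe sets, with a Euclidean distance of 0.27. Crygd gave 41532, 52417 and 27299 at its f-suffix probe set (mean 40416 ± 12596, SD, n = 3), with replicate 3 low once more. Its plain-suffix probe set gave 1297, 262 and 331 (mean 630 ± 579, SD, n = 3), where replicate 1 alone was high and replicates 2 and 3 were close. The distance between the Crygd probe sets was 1.87, 6.96 times that between the Crygb probe sets.

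Gamma crystallin genes are close copies of each other, so their probe sets may report more than 1 gene. The f-suffix probe set of Crygd lay at a distance of only 0.04 from one for Cryge (45942, 59712 and 31241 in replicates 1, 2 and 3), far nearer than to the plain-suffix Crygd probe set. A second Cryge probe set of the f type (47716, 45960 and 23061) lay at 0.07 from the plain-suffix Crygb one. Crygc, with 23660, 37232 and 20722, was also lowest in replicate 3. The low replicate 3 is thus shared by the bright gamma probe sets, and it cannot be assigned to Crygb or Crygd alone. Dimmer Cryge probe sets did not share the low replicate 3. An r-suffix one, above the limit on all 3 arrays, gave 285, 208 and 298 in replicates 1, 2 and 3.

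Crygs had a different pattern from the gamma genes of chromosome 1. Its signals were 24124, 51400 and 38178 in replicates 1, 2 and 3, a mean of 37901 ± 13640 (SD, n = 3). Replicate 1 was low, and replicate 2 was 2.13-fold above it.

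Of the genes of the fibre membrane and beaded filament, Mip followed Crygs, and Bfsp1 and Gja3 did not. Mip had 1131, 1971 and 1650 in replicates 1, 2 and 3, a mean of 1584 ± 424 (SD, n = 3), with the low pool in replicate 1. Bfsp1 had 1123, 781 and 448, a mean of 784 ± 337 (SD, n = 3). Its only probe set has an s suffix, used where several transcripts share the probes. Gja3 had 421, 208 and 143, a mean of 257 ± 145 (SD, n = 3), and lay within 1.34-fold of the background limit in replicate 3. Bfsp1 and Gja3 were high in replicate 1 and low in replicate 3, with ranges of 2.50-fold and 2.94-fold. The background limit was also highest in replicate 1, at 160.3 against 80.7 and 107.1 in replicates 2 and 3. This limits what the dim signals of Gja3 show. The ratio of Bfsp1 to Mip on the same array, which no scaling factor can change, was 3.65 times higher in replicate 1 than in replicate 3, and that of Gja3 to Mip was 4.29 times higher.

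The lens probe sets did not vary as a block. The log2 range, the largest minus the smallest log2 signal over the 3 pools, had a median of 0.97 over the 11 lens probe sets above the limit, against 0.72 over all 6752. A range of 1 or more (2-fold) was reached by 5 of the 11, against 30.6% of all. The high pool was replicate 1 for 4 of the 11 (43.1% of all probe sets), replicate 2 for 6 (31.5%) and replicate 3 for 1 (25.4%). The low pool was replicate 1 for 4 (34.8% of all), replicate 2 for 1 (34.8%) and replicate 3 for 6 (30.4%). With 11 probe sets that partly share targets, these counts are a description. Without replicate 1, the median absolute log2 difference between replicates 2 and 3 was 0.48 for the lens probe sets and 0.34 for all. The log2 range then fell to 0.34 for the plain-suffix Crygd probe set, 0.43 for Crygs, 0.54 for Gja3 and 0.26 for Mip. It was still 0.97 for the plain-suffix Crygb probe set.

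The brightest probe sets shared a pattern that must be read beside the crystallins. Of the 67 probe sets above the limit with a mean signal of 10000 or more, 92.5% had their highest signal in replicate 2, as did all 5 lens probe sets of that brightness. The 67 hold 4 more crystallin probe sets (Crybb2, Crygc and 2 of Cryge), so that 8 of 9 crystallin probe sets were highest in replicate 2. The exception was a Cryge probe set (47716, 45960 and 23061), highest in replicate 1. This level was set after the values were seen. The median deviations of these 67 from their own log2 means were -0.24, 0.39 and -0.07 in replicates 1, 2 and 3. Cryaa, with -0.29, 0.36 and -0.07, differed from that median by at most 0.05 in any pool. Its high value in replicate 2 therefore matched that of other bright probe sets on the array, most of which are not lens genes.

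Crygb and Crygd stood near the edge of the bright probe sets, and another gamma gene, Crygc, less so. Relative to the bright median, Crygb deviated by 0.55, -0.05 and -0.57 in replicates 1, 2 and 3, and the f-suffix Crygd probe set by 0.33, 0.04 and -0.44. Among the deviations of the 67 in replicate 3, a Cryge probe set was the lowest, Crygb ranked 2, the Crygd probe set 4, the second Cryge probe set 5 and Crygc 10 from the bottom. Crygc deviated from the bright median by 0.09, 0.11 and -0.27. Lowest in replicate 3 were 29.9% of the 67 and 3 of the 5 lens probe sets (Crygb, Crygd and Cryba1). Cryba1 was nearer the bright median, at 0.16, -0.11 and -0.13. Crygs departed the other way, at -0.34, 0.12 and 0.15, and ranked 8 from the bottom of the 67 in replicate 1.

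**Figure D2:**
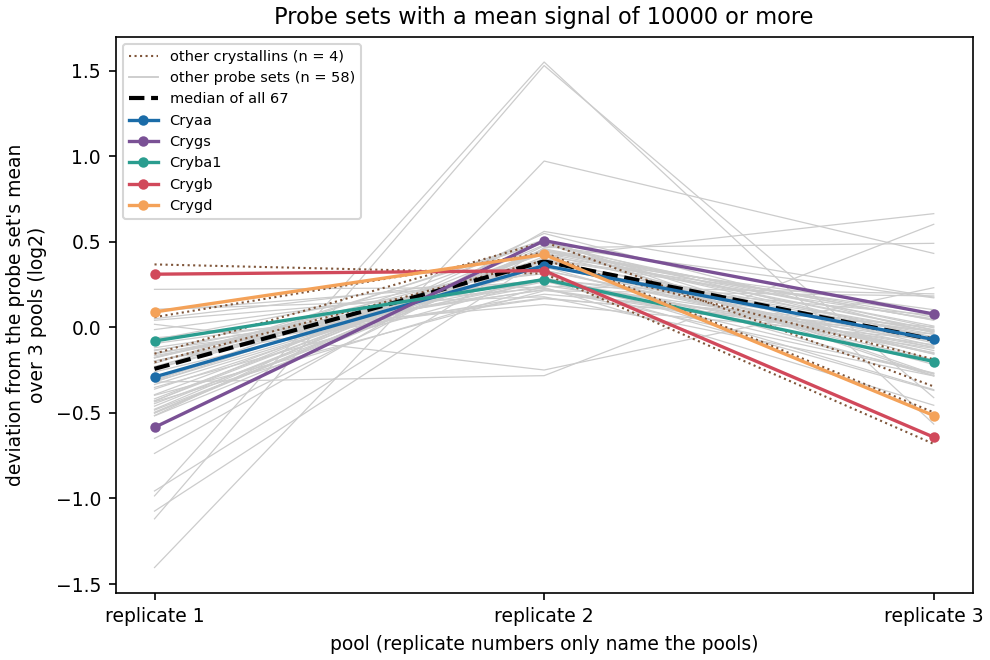
Log2 deviation of each of the 67 probe sets with a mean signal of 10000 or more from its own mean over the 3 pools. Coloured lines with points are the 5 lens probe sets, dotted brown lines the 4 other crystallin probe sets (Crybb2, Crygc and 2 of Cryge), grey lines the remaining 58, and the dashed line is the median of all 67. Cryaa runs along the median, while Crygb and Crygd lie above it in replicate 1 and below it in replicate 3.

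Ratios between 2 probe sets of an array depend on no scaling factor, and they set Crygb apart from Crygs and Cryaa. The ratio of Crygb to Crygs was 3.06 times higher in replicate 1 than in replicate 3, and that of Crygb to Cryaa 2.25 times higher. The other crystallin ratios taken ranged less over the pools. The f-suffix Crygd probe set ranged 1.77-fold against Cryaa and 1.27-fold against Crygb. Against Cryaa, Crygs ranged 1.36-fold and Cryba1 1.26-fold. A ratio within an array shows unequal change and does not say which gene moved.

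How steady a crystallin looked against rod photoreceptor genes depended on the rod gene. All 5 measured rod markers were used, a comparison added after the values were seen, and 4 of them (Gnat1, Sag, Pde6g and Pde6b, all genes of the phototransduction cascade) are themselves among the 67 bright probe sets, so these ratios are not independent of the comparison with the bright median. Gnat1, the rod transducin alpha subunit, had signals of 30806, 51740 and 35647 in replicates 1, 2 and 3, and Pde6b, a phosphodiesterase subunit, 12399, 14881 and 9300. The ratio of Cryaa to these genes ranged 1.08-fold over the pools against Gnat1 but 1.55-fold against Pde6b, while that of Crygb ranged 2.24-fold and 1.45-fold. Against Sag the ratios of Cryaa and Crygb ranged 1.20-fold and 1.88-fold, and against Pde6g 1.14-fold and 1.97-fold. Against Nrl, the remaining rod marker, they ranged 4.65-fold and 3.01-fold. Cryaa was therefore the steadier of the pair against Gnat1, Sag and Pde6g, and not against Pde6b or Nrl.

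For Crygb, Crygs and the f-suffix Crygd probe set, the lowest pool did not depend on the choice among the bright rod genes. For Cryaa and Cryba1 it did. The ratio of Crygb was highest in replicate 1 and lowest in replicate 3 against all 4 (1.45-fold to 2.24-fold). That of the f-suffix Crygd probe set was lowest in replicate 3 against all 4 (1.20-fold to 1.76-fold), but its highest pool was replicate 2 against Pde6b and replicate 1 otherwise. The ratio of Crygs was lowest in replicate 1 and highest in replicate 3 against all 4 (1.37-fold to 2.11-fold). That of Cryaa was highest in replicate 3 against all 4, but lowest in replicate 2 against Gnat1 and in replicate 1 otherwise. Cryba1 was highest in replicate 3 and lowest in replicate 1 against Pde6b. Against the other bright rod genes it was highest in replicate 1 and lowest in replicate 2. Against Nrl, a rod transcription factor with lower signals of 1468, 496 and 706, the ratios of Cryaa, Cryba1, Crygb, Crygs and the f-suffix Crygd probe set were all highest in replicate 2 and lowest in replicate 1, from 3.01-fold for Crygb to 6.31-fold for Crygs.

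**Figure D3:**
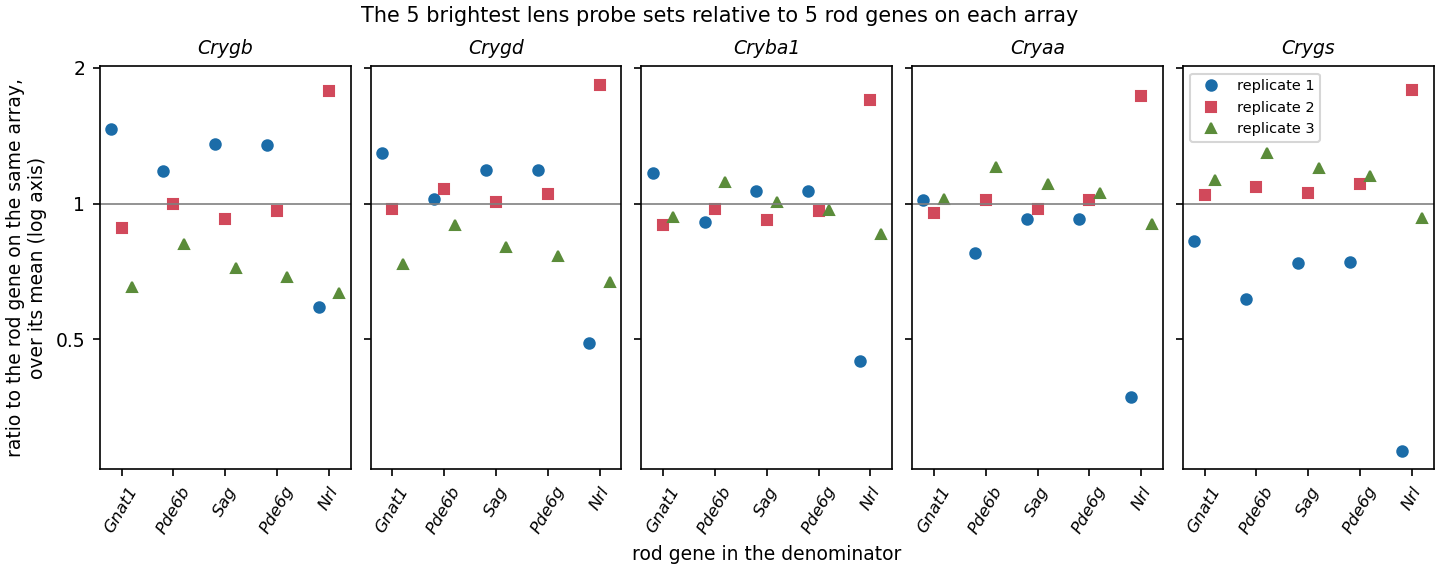
Ratio of each of the 5 brightest lens probe sets to each of 5 rod genes on the same array, divided by the mean of the 3 ratios (log axis). Points are pools and panels are lens probe sets (the plain-suffix one of Crygb and the f-suffix one of Crygd). Crygb is highest in replicate 1 and lowest in replicate 3 against every rod gene but Nrl, and the spread of Cryaa is narrow against Gnat1 and wider against Pde6b.

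Other scalings changed some of these orders. Relative to the trimmed mean, both a common median and quantile normalization shifted the median of all probe sets (log2) by -0.22, 0.23 and 0.02 in replicates 1, 2 and 3. Under the trimmed mean, the common median and quantile normalization alike, 9 of the 11 lens probe sets kept the same lowest pool. That pool was replicate 3 for 5 of them (both Crygb probe sets, the f-suffix Crygd one, Bfsp1 and Gja3), replicate 1 for 3 (Cryaa, Crygs and Mip) and replicate 2 for 1 (the plain-suffix Crygd). The lowest pool of Cryba1 was replicate 3, 1 or 2 depending on the scaling, and that of the f-suffix Cryab probe set replicate 1 or 2. The highest pool was less stable, since Crygb was highest in replicate 1 after quantile normalization, at 28095 against 18849 in replicate 2, and Crygs in replicate 3.

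**Figure D4:**
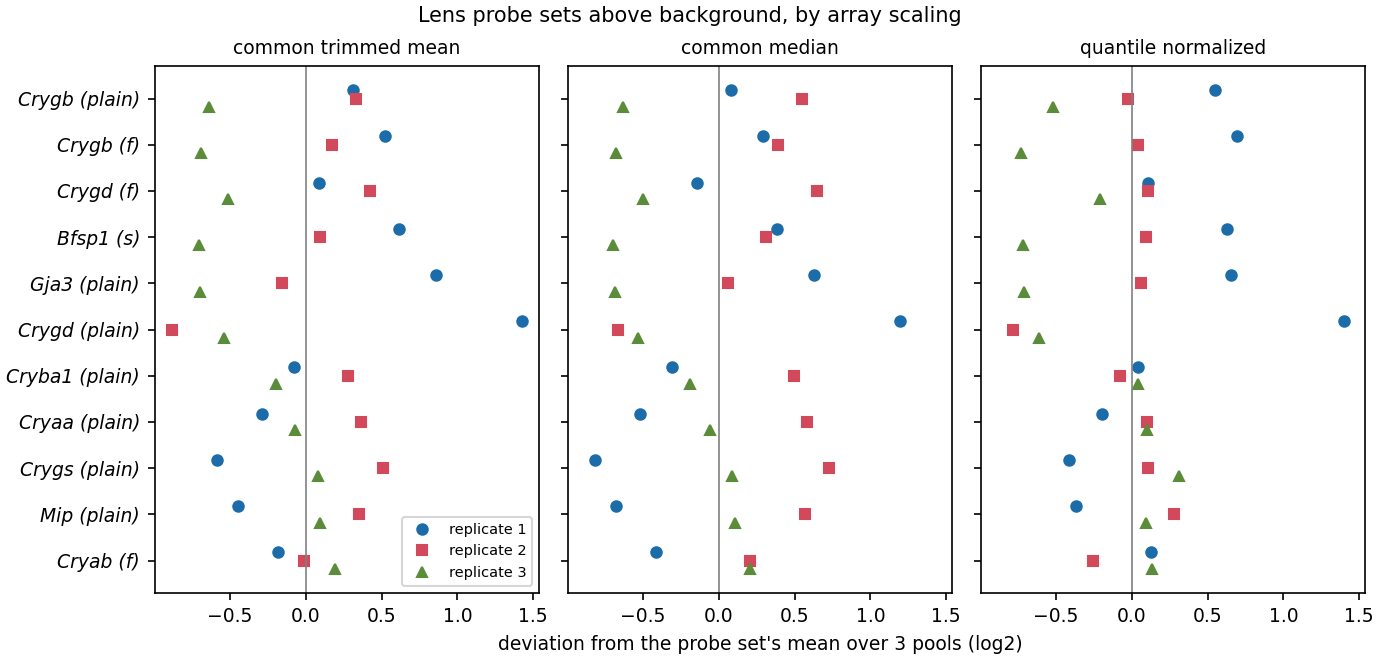
Log2 deviation from the probe set's mean over the 3 pools for the 11 lens probe sets above background, under 3 scalings of the arrays. Points are pools and brackets give the probe set suffix. Replicate 3 is lowest in every panel for Crygb, Bfsp1, Gja3 and the f-suffix Crygd, and replicate 1 is lowest in every panel for Cryaa, Crygs and Mip.

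Markers of neighbouring tissue also differed between the pools, and their part in the lens values was not tested. Of 5 pigment cell markers measured, 2 were above the limit on all 3 arrays. All 5 were lowest in replicate 1, as Cryaa, Crygs and Mip were. So were 34.8% of all probe sets above the limit, and 43 of the 58 bright probe sets that are not crystallins. Dct, an enzyme of melanin synthesis, had 765, 5724 and 3742 in replicates 1, 2 and 3, and Pmel, a melanosome matrix gene, 454, 4105 and 2610, with ranges of 7.49-fold and 9.04-fold, against 1.57-fold for Cryaa, 2.13-fold for Crygs and 1.74-fold for Mip. The 4 stromal and smooth muscle markers together had a summed signal of 828, 1900 and 2394. Dcn (23.1, 602 and 648) and Acta2 (55.5, 722 and 734) were under the limit in replicate 1. The other 2 markers, among them Lum (193, 166 and 244), were above the limit throughout and lowest in replicate 2. The cornea markers summed to 563, 435 and 697, with 1 of 2 above the limit throughout, and the erythroid ones had 1 of 3. No marker named here was at 0. Both Crygb probe sets, the f-suffix Crygd one, Cryba1, Bfsp1 and Gja3 were lowest in replicate 3, as were 30.4% of all probe sets above the limit. All 3 measured ganglion cell markers were also lowest there, with a summed signal of 5858, 4591 and 3778. Of these, Nefl was almost flat (1567, 1519 and 1464, a 1.07-fold range), while Thy1 (2399, 1663 and 1515) and Sncg (1892, 1410 and 799) varied more.

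Further lens-related genes were above background at a share near that of all genes. Of 45 such genes listed, 24 had a probe set of their own, and 14 of the 24 (58.3%) were above the limit on all 3 arrays at the probe set that stands for the gene, against 60.7% of 8251 genes. Counting any probe set of a gene, 17 of the 24 passed (70.8%), against 62.8% of all genes. Of these 14, 5 had a log2 range of 1 or more, against 28.3% of the 5006 genes above the limit, and their median range was 0.78, against 0.69. Crybb2, a beta crystallin, gave 16882, 25491 and 17082 in replicates 1, 2 and 3, close to the pattern of the bright probe sets, but an r-suffix probe set of the gene was highest in replicate 3, at 1866 against 837 and 679 in replicates 1 and 2.

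The transcription factors of lens and retina in that list showed no common order. Prox1, needed for lens fibre elongation and expressed in horizontal cells of the retina, had 215, 379 and 554 in replicates 1, 2 and 3. Pitx3, a lens factor, had 186, 126 and 317. Maf (67.0, 115 and 182) was below the limit in replicate 1, Hsf4, a heat shock factor of the lens, (203, 173 and 37.0) in replicate 3, and Sox1 (184, 50.2 and 50.8) in replicates 2 and 3. Six3 (1163, 727 and 862) and Sox2 (1414, 1359 and 1157), both eye field factors, were above it throughout, as were the adhesion gene Cdh2 (1030, 1376 and 1445) and the membrane linker Ezr (366, 359 and 448). The plain-suffix probe set of Cryge (76.9, 41.9 and 201) was above the limit in replicate 3 alone, unlike the bright f-suffix ones.

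Of the other genes above background, 1.00% lay within a distance of 0.1 of the median lens pattern. The 8 member genes above the limit at the probe set that stands for the gene had median deviations of 0.12, 0.31 and -0.37 in replicates 1, 2 and 3. Of 4998 other genes above the limit, the nearest by Euclidean distance over the 3 pools were Septin2, Psmc3, Capns1, Ckb and Wipi2, at distances of 0.03 to 0.04, and 50 lay within 0.1. The member genes themselves lay between 0.26 (Cryba1) and 1.78 (Crygd) from that median, so it describes no single lens gene. With 3 pools, such likeness is a description of values alone.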

How the data were processed

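The deposited intensities are linear, 1 for each of 12488 probe sets (66 of them array controls) on each array. The software, background correction and scaling of the authors are not given in the sources used here; the deposited values share a 2% trimmed mean close to 500.2. Arrays were scaled to a common 2% trimmed mean over non-control probe sets, with factors between 0.998 and 1.00. For log2 values, lower signals were raised to the 5th percentile of the array. Symbols came from the platform annotation (10833 probe sets with 1 symbol, 396 with several, 1193 with none). In lists, a gene with several probe sets is represented by its plain-suffix one with the highest mean. No test was made, since there is 1 group, and the 3 arrays limit the precision. Genes named are all members, the first 12 measured further lens genes, some of the first 3 measured markers of each cell type (for ratios, all 5 rod markers, added after the values were seen), and the 5 nearest in pattern. The members, lists and rules were chosen with earlier results of these data known. The computations were tested on simulated data, with Python 3.11.15, numpy 2.4.6, pandas 2.3.3 and matplotlib 3.10.9. Other limits, scalings, floors and probe set choices were compared, as were the results without each pool. Promoter sequences are from RefSeq (GRCm38.p6).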

Additional observations from a re-analysis of the deposited data

How the results depend on the processing

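The count of 11 lens probe sets above background was 7 with plain-suffix probe sets only. It was within 1.5 times of 11 in the other 8 alternatives (limit, scaling and each pool left out). With the limit at the 40th percentile of the array it was 10 and lost Gja3, and with the limit at the highest control probe set it was 11. With other scalings and with each pool left out it was also 11, but these could barely change it. The limit moves with the scaling of its array, and leaving out a pool cannot lower the count. The count of 6 lens probe sets lowest in replicate 3 was 3 with plain-suffix probe sets only, and within 1.5 times in the other 5 (5 with the limit at the 40th percentile). The median log2 range of 0.97 was between 0.48 and 0.66 when each replicate was left out, as fewer pools give smaller ranges, and within 1.5 times in all alternatives with 3 pools. The choice of probe set moved 2 genes most: the mean of Cryab was 132 at the plain-suffix probe set, 2418 over both and 4704 at the brighter one, and that of Crygd 630, 20523 and 40416. For single genes, 67 of 72 mean signals and 108 of 139 log2 ranges moved by less than 1 SD between pools. These counts overstate stability, since several alternatives could change little or nothing. Scaling factors were between 0.998 and 1.00, the log2 floor changed no member range, and only 3 genes have 2 probe sets to choose from. The SD is also a wide measure for some genes, at 2.17 for the log2 values of Cryab. The range of Cryaa was 1.10 with a common median, 0.30 after quantile normalization and 0.05 against bright probe sets, and that of Cryba1 0.81 and 0.12 with a common median and after quantile normalization. That of Crygb was 0.02 without replicate 3. Comparisons with bright probe sets and with rod genes were chosen after seeing the data. No paired analysis was possible because there is 1 group. Signals of Gja3 and of the plain-suffix Cryab probe set lie near or under the background limit, which bounds what can be read from them.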
